A study of Mus musculus with 6 samples.

Results

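The eukaryotic translation initiation factors are the proteins that bring a ribosome to the start codon of an mRNA. They were taken here as every row of the count table whose mouse symbol starts with Eif followed by a digit and is not a pseudogene name, which gave 54 of 16671 genes. Expression was measured by RNA sequencing in FAPs (fibro-adipogenic progenitors), stromal cells of skeletal muscle that can form fibroblasts and fat cells. They were sorted by flow cytometry from hindlimb muscles of wild-type mice aged 4 to 5 months. The C1q group held 3 libraries of FAPs that had received C1q at 100 µg/ml, the recognition protein of the classical complement pathway, and the control group held 3 libraries of FAPs that had received vehicle. A low-input SMART-Seq cDNA kit was used on 10 ng of RNA for each library. The protocol text on RNA speaks of muscle stem cells although the cell type is given as FAP. Exposure time and the origin of replicates are not stated in the labels, and the p-values therefore measure a spread between libraries that may be technical.

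Initiation begins when eIF2, loaded with GTP and initiator tRNA, joins the small ribosomal subunit together with eIF3, eIF1, eIF1A and eIF5. The eIF4F complex, made of the cap-binding protein eIF4E, the RNA helicase eIF4A and the scaffold eIF4G, places this assembly on the capped end of the mRNA, and eIF5B then joins the large subunit. Cells adjust the process at a pair of points. Kinases of the Eif2ak family phosphorylate eIF2, which blocks its recharging by the exchange factor eIF2B, and the 4E-binding proteins sequester eIF4E until the kinase mTORC1 phosphorylates them.

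With C1q, 32 of the 54 genes were lower and 5 were higher than in control FAPs, and 17 were not called (limma-trend, Benjamini-Hochberg adjusted p below 0.05 over all 16671 genes). Of all genes measured, 38.3% were called, 18.7% lower and 19.7% higher. The median log2 fold change was -0.42 for the Eif genes and 0.029 for all genes. All 5 genes of eIF2B, 3 of 4 genes of eIF2 and 11 of 14 genes of eIF3 fell. With a transcript length trend removed, as described below, these counts were 5, 2 and 9. The genes that rose were Eif5a2, Eif4a2, Eif4e3, Eif2ak2 and Eif2s3x. For each of these a gene of the same family, namely Eif5a, Eif4a1, Eif4e, Eif2ak1 and Eif2s3y, fell. With 32 of the 54 genes lower, a falling relative is common, and an excess of such pairs was not tested. Among the other relatives Eif4a3 fell, and Eif4e2, Eif2ak3 and Eif2ak4 were not called. The call of Eif2ak1 was lost without C1q replicate 1, 2 or 3 or control replicate 1. Those of Eif2s3x and Eif2s3y were lost with the length trend removed. Every C1q library was below every control library at 35 of the 54 genes, against 25.4% of all genes, and above every control library at 6, against 26.8% of all genes. In bulk RNA, fewer cells of a type and less RNA per cell cannot be told apart.

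**Figure D1:**
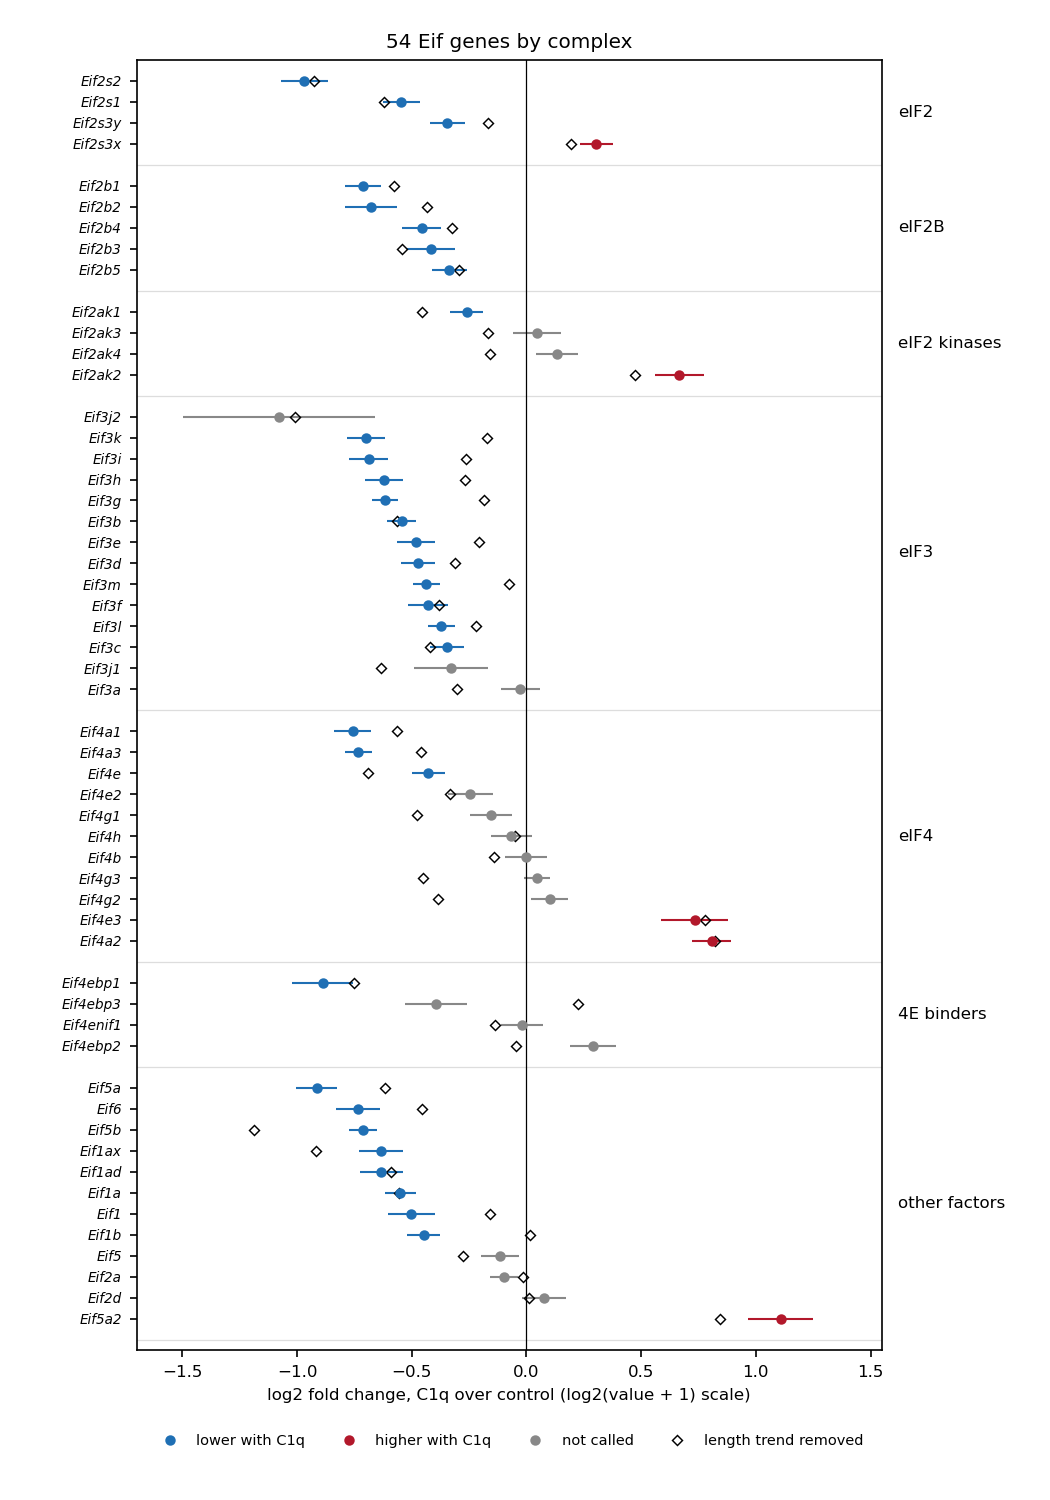
Log2 fold change (C1q over control, horizontal axis) of each of the 54 Eif genes, grouped by complex from top to bottom. Filled circles with SE bars give the test across all genes, coloured by the call, and open diamonds give the value after correction for a transcript length trend. Most circles of eIF2, eIF2B, eIF3 and the other factors lie left of 0, and Eif5a2 at 1.11 lies farthest to the right.

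The values compared are normalised read counts, in which each library's reads per gene are divided by a size factor. The reads on genes numbered 24046020 to 31929119 in the C1q libraries and 5379209 to 38861152 in the control libraries. Control replicate 3 was the shallowest library, and 1 of its reads was worth 4.25 normalised reads, against 0.583 to 0.975 in the others. All FAP markers checked (7 of 7) were measured, and their summed level was 317962 to 420115 in C1q libraries and 192794 to 228424 in control libraries. Of the muscle-lineage markers, 3 of 4 myoblast genes and 1 of 4 fibre genes were called lower with C1q, against 18.7% of all genes. Of the fibre genes, 3 of 4 were lower with the replicate block (19.7% of all genes) or with the length trend described below removed (18.5%). The sum of 4 myoblast markers (Pax7, Myf5, Myod1 and Myog) was 678 to 802 in C1q libraries and 1186 to 3754 in control libraries, with Pax7 at 0 in control replicate 3, and that of 4 fibre markers (Ckm, Acta1, Myh1 and Myh4) was 9058 to 14169 in C1q libraries and 12681 to 50270 in control libraries. The fibre sums overlapped between groups and the myoblast sums did not. The pericyte and smooth muscle sum was 22537 to 24445 in C1q libraries and 28899 to 36789 in control libraries. Most of it was Pdgfrb, which was called lower, while Myh11 and Cspg4 had positive log2 fold changes (0.93 and 0.27) and, like Rgs5, which stood at 0 to 6.72 in every library, were not called. The endothelial sum was 558 to 1268 with C1q and 574 to 1254 in controls, and the sum of 3 leukocyte genes 49.3 to 110.1 with C1q and 93.5 to 107 in controls. The part of these other cells in the results was not tested. Without control replicate 1, where the muscle-lineage markers were highest, the Eif genes gave 32 lower and 5 higher calls. Over all 16671 genes that fit gave 2582 lower and 2806 higher calls. Leaving out control replicate 1 did not remove the difference in the myoblast sums, which were 1186 or more in every control library.

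Log2 fold changes in these libraries followed transcript length. Over 14933 genes with an annotated length the Spearman correlation of length and log2 fold change was 0.40, and over the 54 Eif genes it was 0.57. Both are descriptions across genes, which share the same 6 libraries. Of 9 Eif genes with transcripts under 1500 bases, 8 were lower, against 43.3% of all genes of that length. Of 10 Eif genes with transcripts of 5000 bases or more, 2 were lower and 1 was higher, against 4.96% of all such genes lower and 47.5% higher. With a smooth trend on length removed from each library, 32 Eif genes were again lower and 4 were higher, where 32.6% of 14933 genes were called, 18.5% lower and 14.1% higher, and the median of the Eif genes was -0.31. The 32 were not the same genes. The sets shared 25 lower genes, where 12.9% of the 14933 genes were lower in both fits and 11.9% higher in both, while Eif1, Eif1b, Eif2s3y, Eif3e, Eif3g, Eif3k and Eif3m lost the call and Eif3a, Eif3j1, Eif4e2, Eif4g1, Eif4g2, Eif4g3 and Eif5 gained it. Calls that held in both fits, with edgeR, with DESeq2, with the replicate number as a block and without any 1 library numbered 23 lower and 4 higher, against 9.76% and 9.03% of the 14933 genes. The block called 41% of all genes, 19.7% lower and 21.3% higher.

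**Figure D2:**
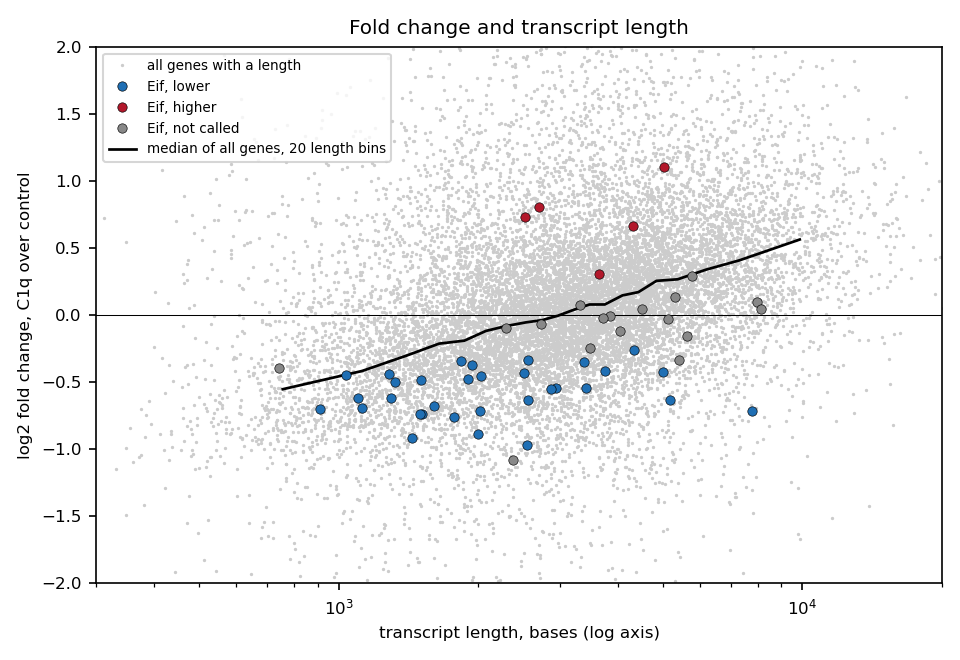
Log2 fold change (C1q over control) against transcript length on a log axis, for 14933 genes in grey and the 54 Eif genes as large points coloured by call. The black line joins the medians of 20 bins of equal gene number and climbs from -0.55 to 0.56 with length; 344 genes lie outside the plotted range. Most Eif genes lie under the line at every length, and Eif5a2, Eif4a2, Eif4e3 and Eif2ak2 lie above it.

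Relatives that changed in opposite directions are described first. A stretch of coding sequence is shown for each pair so that the copies, and the bases by which a read can be assigned to one of them, can be compared. Lower case marks bases that the pair share and capitals mark bases that differ. Each stretch holds 90 bases and was chosen as the first whose number of differences is nearest to the average of the pair. The sequences come from GENCODE transcripts of build GRCm38, and positions count from the first base of the start codon.

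Eif4a1 (chromosome 11, coding bases 52 to 141): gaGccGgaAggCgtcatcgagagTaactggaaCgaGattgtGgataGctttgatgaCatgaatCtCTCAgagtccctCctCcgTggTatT
Eif4a2 (chromosome 16, coding bases 58 to 147): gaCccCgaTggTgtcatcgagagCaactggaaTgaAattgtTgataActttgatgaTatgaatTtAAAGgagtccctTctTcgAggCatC
Eif5a2 (chromosome 3, coding bases 13 to 102): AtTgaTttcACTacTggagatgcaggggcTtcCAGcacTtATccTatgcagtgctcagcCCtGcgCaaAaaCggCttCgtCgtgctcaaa
Eif5a (chromosome 11, coding bases 13 to 102): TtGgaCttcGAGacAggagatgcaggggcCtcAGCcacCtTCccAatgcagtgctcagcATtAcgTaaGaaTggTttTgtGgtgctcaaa
Eif2s3x (chromosome X, coding bases 19 to 108): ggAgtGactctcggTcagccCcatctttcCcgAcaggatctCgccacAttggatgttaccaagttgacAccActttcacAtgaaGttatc
Eif2s3y (chromosome Y, coding bases 19 to 108): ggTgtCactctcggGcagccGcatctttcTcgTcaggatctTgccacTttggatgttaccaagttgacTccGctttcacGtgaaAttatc

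Over their aligned coding bases Eif4a1 and Eif4a2 were 78.2% identical, Eif5a2 and Eif5a 73.2%, and Eif2s3x and Eif2s3y 86.3%. The longest run of identical bases was 20, 14 and 34 in these pairs, so a read of the coding sequence longer than the run holds at least 1 base that tells the copies apart. Eif3j1 and Eif3j2 were 100% identical over 783 aligned coding bases, and the reads of these are uncertain because counting could have split them either way.

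Eif4a1 and Eif4a2 encode closely related forms of the eIF4F helicase that unwinds the leader of the mRNA. Eif4a1 (Entrez gene 13681, GRCm38 chromosome 11, 69666936 to 69672423, minus strand) had 5015, 5585 and 5578 normalised reads in the C1q libraries, against 8933, 9839.5 and 8596 in the control libraries. Eif4a2 (Entrez gene 13682, chromosome 16, 23107468 to 23114132, plus strand) had 6042, 5401 and 5518 in the C1q libraries, against 3359, 2922 and 3422 in the control libraries. All 3 C1q libraries were below all controls for Eif4a1 and above all controls for Eif4a2. Eif4a1 averaged 5392 ± 327 with C1q and 9123 ± 643 in controls (SD, n = 3 each, as for all means below), a log2 fold change of -0.76 ± 0.08 (SE) with a limma adjusted p of 5.34e-04. Eif4a2 averaged 5654 ± 341 with C1q and 3234 ± 272 in controls, a log2 fold change of 0.81 ± 0.08 with a limma adjusted p of 4.87e-04. Per length, the share of Eif4a1 in the sum of both genes was 59.3% ± 2.93 with C1q and 81.1% ± 2.32 in controls. The transcripts are of middling length, and with the length trend removed the log2 fold changes were -0.56 and 0.82, both called. Exons of Rfc4 overlap Eif4a2 on the opposite strand, so reads there cannot be told apart where the strand of the counting is not given. Several small nucleolar RNA genes lie inside Eif4a2 on its own strand, and strand cannot separate their reads from those of Eif4a2.

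Eif5a encodes a factor that carries the modified amino acid hypusine and helps the ribosome past difficult peptide bonds, and Eif5a2 is its second, usually scarcer form. Eif5a2 (Entrez gene 208691, chromosome 3, 28781032 to 28798846) had 298, 285 and 288 normalised reads with C1q, against 147, 148 and 111 in controls, where the reads behind the values were 252, 192 and 26. Eif5a (Entrez gene 276770, chromosome 11, 69916712 to 69921958) had 6234, 6691 and 6608 with C1q, against 11983, 13685 and 11257 in controls. The groups did not overlap for either gene. Eif5a2 was 2.16-fold higher with C1q, with a log2 fold change of 1.11 ± 0.14 and a limma adjusted p of 9.84e-04, and without control replicate 3, which held few reads of it, the log2 fold change was 0.97. Eif5a was 1.88-fold lower, with a log2 fold change of -0.91 ± 0.09 and a limma adjusted p of 3.97e-04. Eif5a remained by far the more abundant per length, at 4531 normalised reads per kilobase of transcript with C1q and 8565 in controls, against 57.7 and 26.9 for Eif5a2. Its level per length in controls was the highest of all 54 genes, and that of Eif5a2 was the lowest.

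**Figure D3:**
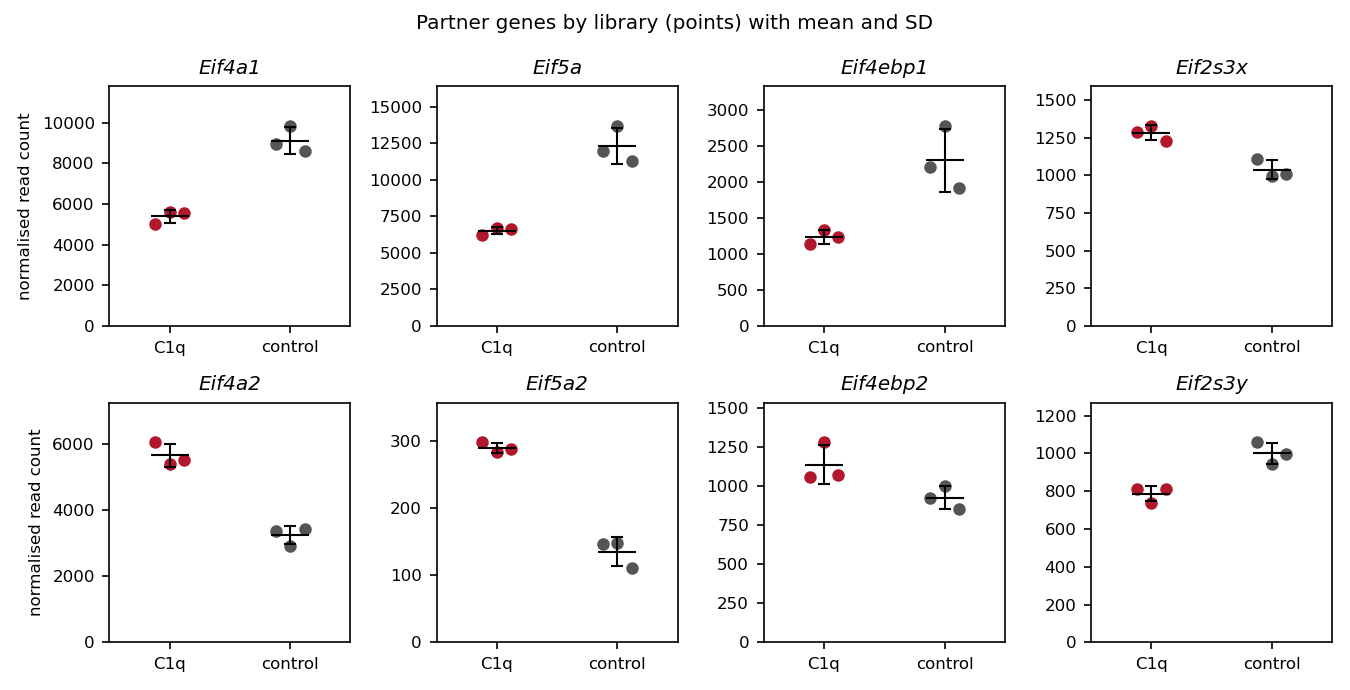
Normalised read count of 8 genes in each library (points, C1q left and control right), with the mean and SD as bars, on axes that start at 0. Each column holds a pair of relatives: Eif4a1 and Eif4a2, Eif5a and Eif5a2, Eif4ebp1 and Eif4ebp2, and Eif2s3x and Eif2s3y. In each pair the C1q points are below the control points for one gene and above them for the other.

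The bases before the annotated starts of Eif4a1 and Eif4a2 are shown because these relatives moved in opposite directions. Each stretch is the 250 bases before the start on the gene's own strand, from RefSeq on GRCm38.p6, and capitals mark CACGTG, the E-box bound by MYC and related factors. Eif4a1 lies at chr11:69672424-69672673 on the minus strand and Eif4a2 at chr16:23107218-23107467 on the plus strand.

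Eif4a1: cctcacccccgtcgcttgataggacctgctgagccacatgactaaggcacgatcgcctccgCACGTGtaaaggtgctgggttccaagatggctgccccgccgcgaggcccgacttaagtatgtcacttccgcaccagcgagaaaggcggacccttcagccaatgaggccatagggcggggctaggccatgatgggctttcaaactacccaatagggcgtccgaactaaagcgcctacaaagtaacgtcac
Eif4a2: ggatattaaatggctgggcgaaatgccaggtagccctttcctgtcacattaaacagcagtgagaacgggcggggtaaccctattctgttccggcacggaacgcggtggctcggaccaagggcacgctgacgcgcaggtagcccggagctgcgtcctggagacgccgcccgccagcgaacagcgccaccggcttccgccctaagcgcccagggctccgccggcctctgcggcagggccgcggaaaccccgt

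The stretch of Eif4a1 holds 1 E-box, 189 bases before the start, and that of Eif4a2 holds 0. RefSeq promoter windows of 250 bases before to 50 after a start were given for 43 of the 54 Eif genes, with 56 windows in all. CACGTG, which reads the same on both strands, was in 12 of these 56 windows (21.4%), in 9.36% of the 15672 windows of all genes in the table, and in 7.15% of 32851 windows of all genes. Windows of 1 gene can overlap, and a pair of the windows of Eif5a hold the same E-box. Counted by gene, it was in 10 of 43 Eif genes (23.3%) and in 11.1% of the 12371 genes of the table with a window. By call, 6 of 25 lower genes, 1 of 4 higher genes and 3 of 14 genes not called held it. Eif4e, Eif4g1, Eif4h, Eif5a, Eif5a2, Eif1b, Eif3a, Eif3f and Eif3k were the others that held it. Eif5a, which fell, and Eif5a2, which rose, thus both held the E-box, unlike the pair printed above. Of Eif4e and Eif4e3 only Eif4e is among the genes listed. The element TGATGNAA, read by ATF4 and its partners and searched on both strands, was in 1 of the 56 Eif windows, that of Eif2s3x, and in 2.35% of the windows of all genes in the table. No Eif window held both motifs, and a match is a description of the sequence.

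The eIF2 complex is made of an alpha subunit (Eif2s1), which is the one phosphorylated, a beta subunit (Eif2s2) and a gamma subunit that binds GTP, encoded by Eif2s3x on chromosome X and by Eif2s3y on chromosome Y. Eif2s2 had 1993, 2219 and 2066 normalised reads in the C1q libraries, against 4456, 4364 and 3519.9 in controls, a log2 fold change of -0.97 ± 0.10 with a limma adjusted p of 4.90e-04. Eif2s1 had 1034, 1108 and 1047 with C1q, against 1599, 1402 and 1662 in controls, a log2 fold change of -0.54 with a limma adjusted p of 0.00179. All C1q libraries were below all controls for both subunits, and both calls held with the length trend removed (-0.93 and -0.62). The copies of the gamma subunit went opposite ways, and the share of male cells in each library was not tested. Eif2s3x had 1290.1, 1327 and 1229 with C1q, against 1109, 998 and 1008 in controls, a log2 fold change of 0.30 with a limma adjusted p of 0.0121. Eif2s3y had 812, 739.7 and 809.8 with C1q, against 1058, 943 and 999 in controls, a log2 fold change of -0.34 with a limma adjusted p of 0.00975. The share of the Y copy in both, per length, was 54.9% ± 2.15 with C1q and 65.7% ± 0.583 in controls. These were the smallest changes among the pairs whose coding sequences are shown. With the length trend removed they were 0.19 and -0.17 with limma adjusted p of 0.0586 and 0.171. The call of Eif2s3x was also lost without C1q replicate 2 (limma adjusted p 0.0563).

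The 5 subunits of eIF2B, which swaps GDP for GTP on eIF2, all fell, and none of their C1q libraries reached a control library. Of all genes, 18.7% were lower and 25.4% had every C1q library below every control library. The largest fall among the 5 subunits was in Eif2b1, the alpha subunit, with 454, 488 and 474 normalised reads with C1q, against 725, 795 and 803 in controls, a log2 fold change of -0.71. Eif2b2, the beta subunit, had 407, 416 and 383 with C1q, against 748, 635 and 561 in controls, a log2 fold change of -0.68. The catalytic epsilon subunit Eif2b5 changed least, with 1019.5, 993 and 991 with C1q, against 1386, 1191 and 1224 in controls, a log2 fold change of -0.34 with a limma adjusted p of 0.0106. Eif2b3 and Eif2b4, the gamma and delta subunits, lay between at -0.42 and -0.46, and the call of Eif2b3 was lost without C1q replicate 2 (adjusted p 0.0654). All 5 kept their call with the length trend removed, with a median of -0.44. Of genes with a length, 12.9% were lower in both fits. With every library thinned to 5379209 reads, Eif2b3 and Eif2b4 were not called (adjusted p 0.445 and 0.0635).

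Of the 4 kinases that phosphorylate eIF2, 1 rose, 1 fell and 2 were not called, where 19.7% of all genes were higher and 18.7% lower. Eif2ak2 encodes PKR, which is activated by double-stranded RNA and is a known interferon-induced gene. It had 1273, 1480.4 and 1482 normalised reads with C1q, against 832, 825 and 1020.3 in controls, a log2 fold change of 0.67 ± 0.11 with a limma adjusted p of 0.00248. Every C1q library exceeded every control, and the call held with the length trend removed (0.47, adjusted p 0.0133). Eif2ak1, the heme-regulated kinase, had 1494, 1516 and 1527 with C1q, against 1794, 1689 and 1964 in controls, a log2 fold change of -0.26 with a limma adjusted p of 0.0236. That call was lost without C1q replicate 1, 2 or 3 or control replicate 1 (adjusted p 0.081, 0.0744, 0.0714 and 0.0528), and exons of Aimp2 overlap the gene on the opposite strand. Eif2ak3, which encodes the endoplasmic reticulum kinase PERK, had 1005, 1041 and 956 with C1q, against 1064, 827 and 1033 in controls. Eif2ak4, which encodes the amino acid sensor GCN2, had 498, 487 and 449 with C1q, against 469.7, 434 and 404 in controls, and the libraries of the groups overlapped for both of these kinases.

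Partners and targets of eIF2 phosphorylation were measured as 1 list of 11 genes. The list also holds Gcn1, Impact, Dnajc3, Ppp1r15a and Ppp1r15b, so its counts do not measure the output of eIF2 phosphorylation alone. Of these 5 were lower and 1 was higher, against 18.7% and 19.7% of all genes. The median log2 fold change of the 11 genes was -0.55. With the length trend removed 5 were lower and 0 higher, against 18.5% and 14.1% of genes with a length. Lower in both fits were 3, against 12.9% of genes with a length. Atf4, the transcription factor whose translation rises when eIF2 is phosphorylated, had 1275, 1416 and 1389.6 normalised reads with C1q, against 2449.7, 2348 and 1994 in controls, a log2 fold change of -0.73 with a limma adjusted p of 9.11e-04. With the length trend removed Atf4 was at -0.52 and still called lower. Its targets Chac1 (79.1 ± 10.6 with C1q and 212 ± 34.8 in controls) and Asns (1128 ± 138 with C1q and 1664 ± 222 in controls) fell, by 1.41 and 0.56 on the log2 scale, and both calls held with the length trend removed. Ddit3 fell by 0.78, a call lost with the length trend removed (adjusted p 0.231). The list was chosen with an earlier account of these data known, in which several of its genes already figured.

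The eIF3 complex is the largest initiation factor and holds the small subunit, the initiator tRNA complex and the mRNA together. Of its 14 measured genes 11 fell and 0 rose, against 18.7% and 19.7% of all genes. Lower both with and without the length trend were 7, against 12.9% of genes with a length. The log2 fold change was negative at all 14, which include the copies Eif3j1 and Eif3j2, and at 7981 of all 16671 genes. Together the 14 genes made up 0.211% ± 0.00183 of the normalised reads with C1q and 0.285% ± 0.00838 in controls. Falls were largest among the short subunit genes: Eif3k changed by -0.70, Eif3i by -0.69, Eif3h and Eif3g by -0.62. Eif3i had 2166, 2231 and 2149 normalised reads with C1q, against 3488, 3916 and 3184 in controls. Eif3g had 1292, 1220.2 and 1271 with C1q, against 1927, 1964 and 1913 in controls, so the groups stood well apart. Eif3k had 2412, 2558 and 2455 with C1q, against 3641, 4419.8 and 4026 in controls. Eif3h had 4066, 4416 and 4157 with C1q, against 5833, 6908 and 6734 in controls. Neither gene's groups overlapped. These 4 genes have transcripts of 909 to 1295 bases, and with the length trend removed their log2 fold changes were -0.17, -0.26, -0.27 and -0.18, with Eif3i and Eif3h still called and Eif3k and Eif3g not.

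The core subunits with longer transcripts gave a different picture. Eif3b had 3948, 4038 and 4048 normalised reads with C1q, against 6175, 5721 and 5667 in controls, and its log2 fold change of -0.54 became -0.56 with the length trend removed. Eif3c had 6444, 7043 and 6518 with C1q, against 8894, 8616 and 7937 in controls, with -0.35 and -0.42 in these fits. Eif3a, the largest subunit, had 6914, 7655 and 7338 with C1q, against 7785, 6724 and 7848 in controls. The groups overlapped for Eif3a and it was not called (limma log2 fold change -0.027, adjusted p 0.831), but with the length trend removed it was at -0.30 with an adjusted p of 0.0189. Eif3d, Eif3e, Eif3f, Eif3l and Eif3m fell by 0.37 to 0.48 on the log2 scale, and Eif3e and Eif3m lost the call with the length trend removed. Eif3j1, a loosely attached subunit, had 685, 787 and 772 with C1q, against 1119, 1029 and 718 in controls. It was not called (adjusted p 0.147, and 0.00351 without control replicate 3). Its copy Eif3j2 had 67.6, 43.9 and 48.6 with C1q, against 79.2, 78.0 and 225 in controls. The log2 fold change of Eif3j2 was -1.08, the most negative of the 54 genes, and -0.58 without control replicate 3. It was not called by limma (adjusted p 0.0787) or edgeR (0.0761) and was called lower by DESeq2 (0.014).

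**Figure D4:**
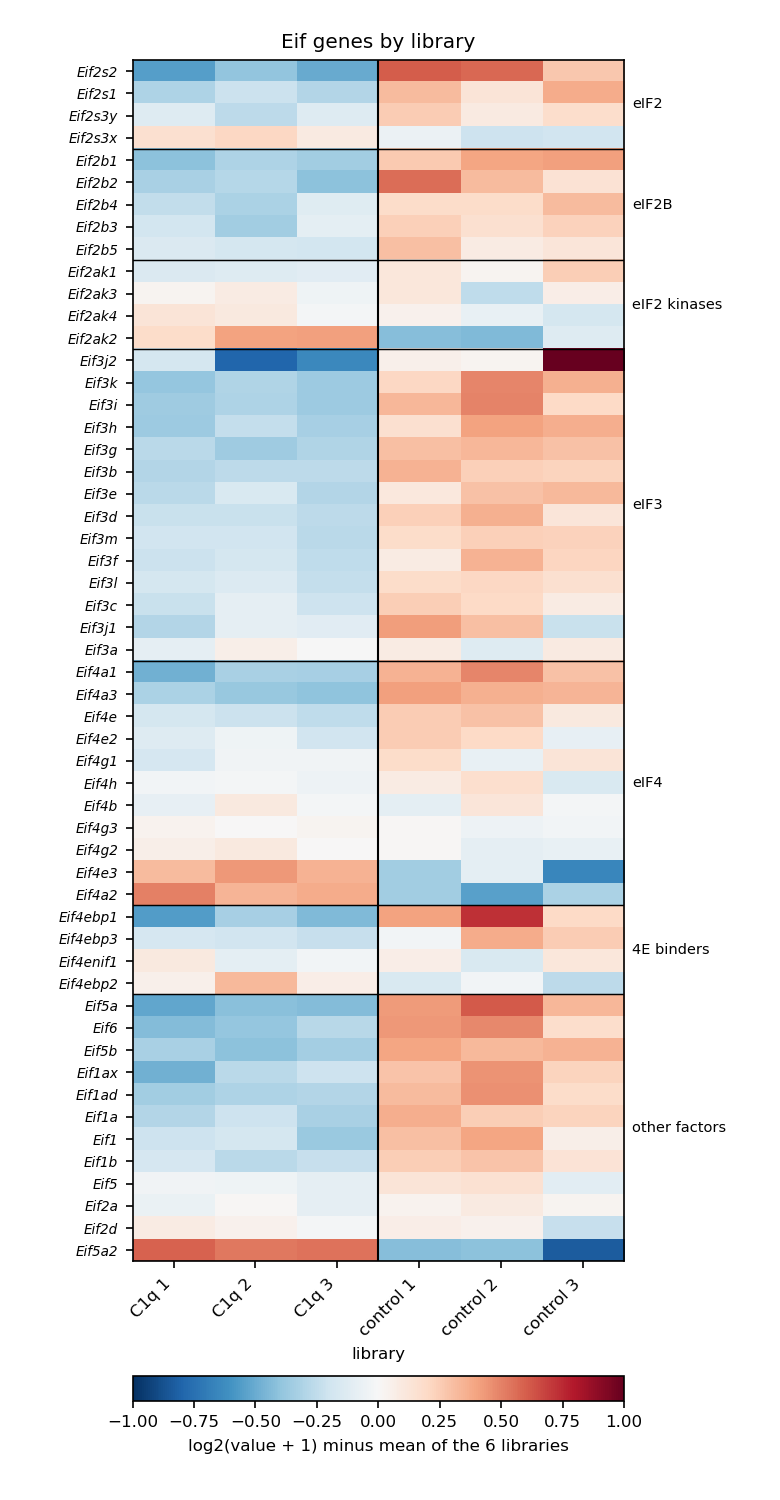
Each row is 1 of the 54 Eif genes and each column 1 library, C1q libraries left and control libraries right. Colour gives log2(value + 1) minus the mean of the 6 libraries, on a scale that ends at 1 in both directions. The rows of eIF2B and most of eIF3 are blue in all 3 C1q columns, the rows of Eif4b, Eif4g2 and Eif4g3 are nearly white, and Eif3j2 stands out in control replicate 3.

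Of the 11 genes of the eIF4 group, 3 fell, 2 rose and 6 were not called, where 18.7% of all genes were lower and 19.7% higher. Eif4e, the cap-binding subunit, had 1329.6, 1291 and 1258 normalised reads with C1q, against 1787, 1835 and 1603 in controls, a log2 fold change of -0.43 with a limma adjusted p of 0.00304. The relative Eif4e3 went the other way, with 385, 416 and 393 with C1q, against 242, 288 and 196 in controls, a log2 fold change of 0.73 with a limma adjusted p of 0.00619. Both calls held with the length trend removed (-0.69 and 0.78), and neither gene's groups overlapped. Eif4e2, which encodes a cap-binding repressor, averaged 1729.7 ± 86.0 with C1q and 2058 ± 251 in controls. It was not called (adjusted p 0.0884, and 0.0427 when replicate numbers were a block). Eif4a3, the helicase of the exon junction complex, had 1419, 1363 and 1340.3 with C1q, against 2349, 2263 and 2240.3 in controls, a log2 fold change of -0.73 with a limma adjusted p of 2.38e-04, the lowest of all 54 genes.

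The scaffold genes were not called. Eif4g1, the main scaffold, had 10004, 10986 and 10990.4 normalised reads with C1q, against 12735, 10671 and 12269 in controls. Eif4g2, whose product lacks the eIF4E-binding part, had 20821, 21389 and 20043 with C1q, against 20146, 18873 and 19045 in controls. Eif4g3 had 3770.2, 3702 and 3762 with C1q, against 3719.9, 3554 and 3622 in controls. The groups overlapped for all 3 genes, and their log2 fold changes were -0.16, 0.10 and 0.044. These have the longest transcripts of the group, at 5638, 7995 and 8134 bases, and with the length trend removed they were called lower at -0.48, -0.39 and -0.45, so the direction of Eif4g2 and Eif4g3 depends on that correction. Per length, the share of Eif4g1 in the sum of Eif4g1 and Eif4g3 was 80.4% ± 0.965 with C1q and 82.5% ± 1.07 in controls. Eif4b, which stimulates the helicase, had 13463, 15274 and 14053 with C1q, against 13309, 15516 and 14067 in controls, and Eif4h, of similar function, averaged 4992 ± 66.8 with C1q and 5245 ± 586 in controls. Neither was called in either fit.

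Among the proteins that hold eIF4E away from the scaffold, Eif4ebp1 fell. Eif4ebp1 (Entrez gene 13685, chromosome 8, 27260327 to 27275656) had 1132, 1329 and 1229 normalised reads with C1q, against 2208, 2776 and 1917 in controls, a log2 fold change of -0.89 ± 0.13 with a limma adjusted p of 0.00194, and -0.75 with the length trend removed. Eif4ebp2 had 1057, 1279 and 1069 with C1q, against 921, 1001 and 854 in controls. Its C1q libraries were all above its controls, but it was not called (log2 fold change 0.29, adjusted p 0.0522, and 0.0177 when replicate numbers were a block), and with the length trend removed it was at -0.044. Per length, Eif4ebp1 made up 75.9% ± 0.941 of the pair with C1q and 87.7% ± 1.15 in controls. Eif4ebp3 averaged 155 ± 3.47 with C1q and 206 ± 28.6 in controls and was not called by limma (log2 fold change -0.40, adjusted p 0.0531). It was called lower by edgeR (adjusted p 0.0463) and by limma when genes averaging under 10 were left out (0.0439), and not by DESeq2 (0.0767). Eif4enif1, which encodes the shuttle protein of eIF4E, averaged 1194 ± 80.0 with C1q and 1211 ± 115 in controls.

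The mTORC1 pathway acts on these binding proteins. Of 20 of its genes 9 were lower and 3 were higher, against 18.7% and 19.7% of all genes. Their median log2 fold change was -0.0096. The subunits of the amino acid sensing GTPase Rragc (2714 ± 79.1 with C1q and 3996 ± 196 in controls) and Rraga (1439.6 ± 44.4 with C1q and 1852 ± 54.9 in controls) fell, as did the activator gene Rheb (1465 ± 22.5 with C1q and 1893 ± 82.5 in controls). Sesn3, which encodes a sestrin that restrains mTORC1, rose by 1.36 on the log2 scale, with 1051, 1349.8 and 1096 normalised reads with C1q, against 469, 393 and 493 in controls. With the length trend removed 8 of the 20 were lower and 1, Sesn3, was higher, against 18.5% and 14.1% of genes with a length. Rraga lost its call in that fit (limma adjusted p 0.192).

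The remaining 12 Eif genes include the factors that find the start codon and join the subunits, and also Eif5a, Eif5a2 and Eif6. Of these 12 genes 8 fell and 1, Eif5a2, rose, against 18.7% and 19.7% of all genes. Eif5b, the GTPase of subunit joining, had 3142, 2965 and 3109 normalised reads with C1q, against 5174, 4925 and 4995 in controls. Its log2 fold change was -0.71 ± 0.06 with a limma adjusted p of 2.66e-04, and at a transcript length of 7797 bases, where the median over all genes of 5000 bases or more was 0.37, it was -1.19 with the length trend removed. Exons of Rev1 overlap Eif5b on the opposite strand. Eif6, which keeps free large subunits from joining, had 885, 916 and 987 with C1q, against 1622, 1674 and 1356 in controls, a log2 fold change of -0.73. Eif1, which guards start codon choice, had 5282, 5393 and 4724 with C1q, against 7512, 7996 and 6359.6 in controls, a log2 fold change of -0.50. Eif1b, its relative, fell by 0.45. Both have short transcripts, and with the length trend removed they were at -0.16 and 0.015 and not called.

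The scanning factor eIF1A is encoded by Eif1a on chromosome 18 and by Eif1ax on chromosome X, and both fell. Eif1ax had 801, 928 and 965 normalised reads with C1q, against 1361, 1522 and 1301 in controls, a log2 fold change of -0.64. Eif1a had 1638, 1737 and 1597 with C1q, against 2576, 2371 and 2334 in controls, a log2 fold change of -0.55. The C1q libraries of both were below all controls, and the changes were -0.92 and -0.56 with the length trend removed. Eif1ad, which encodes a protein with an eIF1A-like domain, had 315, 324 and 327 with C1q, against 498, 549.8 and 455 in controls, a log2 fold change of -0.63. Eif5, which triggers GTP hydrolysis by eIF2, had 4200.1, 4167 and 4034 with C1q, against 4705, 4776 and 4005 in controls, and was not called (adjusted p 0.302, and 0.0392 without control replicate 3). Eif2a, a separate factor that is not a subunit of eIF2, averaged 1306 ± 46.7 with C1q and 1398 ± 33.1 in controls, and Eif2d averaged 732 ± 26.3 with C1q and 697 ± 77.7 in controls, neither called.

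Partners of initiation and the factors of the next steps were described for comparison. Of 19 partners, 9 were lower and 3 higher, against 18.7% and 19.7% of all genes. Their median log2 fold change was -0.24. Pdcd4, an inhibitor of the eIF4A helicase, had 1379, 1479 and 1278 normalised reads with C1q, against 943, 1026 and 859 in controls, a log2 fold change of 0.55 with a limma adjusted p of 0.0027. Bzw2, which encodes an eIF5 mimic protein, rose by 0.38, while Denr, a factor of reinitiation, and Abcf1 fell by 0.50 and 0.42. All 4 calls held with the length trend removed. Of 11 elongation and termination factors 6 were lower and 0 higher, beside the same shares of all genes, with a median of -0.37. The subunits of the elongation factor exchange complex Eef1b2 (9227 ± 672 with C1q and 14832 ± 1464 in controls) and Eef1g (13492 ± 829 with C1q and 20763 ± 633 in controls) fell by 0.68 and 0.62, and Eef1e1 by 0.75. Eef1a2, a form known from muscle, fell by 1.27, with 106, 81.9 and 139.7 normalised reads with C1q, against 318, 227 and 242 in controls. It was highest in control replicate 1, as were the muscle-lineage markers given above, and their part in its change was not tested.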

How the data were processed

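The deposited values are a normalised signal, reads per gene scaled by 1 factor for each library, although the headers call them counts. Per the submitters' processing notes the tools were Trimmomatic, HISAT2, featureCounts and DESeq2 and the build was mm10. Neither tool versions nor the annotation or strand option of the counting were found in the labels. All values (100%) were whole multiples of 1 read within 0.001 of a read, so reads were recovered for count tests, which called 6881 genes with edgeR and 6492 with DESeq2, against 6389 in the main test. The planned test allowed for either unit. No genes fell below the mean of 1 set as a minimum.

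For all 16671 genes, log2(value + 1) in C1q libraries was compared with that in control libraries using the limma-trend method (R 4.3.3, package limma 3.58.1). Fold changes are on that scale and understate changes of low genes. edgeR 4.0.16 with TMM scaling, with and without a filter on low counts, DESeq2 1.42.0, pseudocounts of 0.5 and 10, a mean of at least 10, thinning, the replicate block, removal of a loess trend on transcript length (span 0.5, fitted on means of at least 20) and leaving out each library were alternatives. Scripts were tested on simulated data. Symbols came from RefSeq (GRCm38.p6; 16077 IDs matched), and lengths, the longest protein-coding transcript (or the longest of any kind where a gene has none), from GENCODE vM21 (89.6% of IDs, all 54 members). Eif2c5, Eif4a3l1, Eif4a3l2 and Eif4e1b were not analysed here.

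Same-numbered libraries deviated together from their group means (correlations 0.123, 0.175 and 0.132 over all genes, against -0.132 to 0.00485 for libraries of different number). The numbers were therefore taken as pairs in the replicate block, from the data and not from the labels. The main test used the group alone and ignored these pairs. Replicates differed by more than sampling noise (chi-square per degree of freedom 17.6 to 42.9).

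Members and lists were chosen with earlier results of these data known. Named with values in every library were members called with an absolute log2 fold change of at least 0.5 and a list of main subunits and regulators, plus up to 4 genes of each context list with the lowest p.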

Additional observations from a re-analysis of the deposited data

How the results depend on the processing

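The Eif genes gave 30 to 35 lower and 4 to 6 higher calls under every alternative at an adjusted p below 0.05, and 29 and 4 at an adjusted p below 0.01. Leaving out 1 library gave 30 to 35 lower and 4 to 6 higher. The replicate block gave 33 and 6 and changed no call but those of Eif4e2 and Eif4ebp2. Over all genes 3860 were called at an adjusted p below 0.01 (1917 lower and 1943 higher), against 6389 at 0.05. Leaving out 1 library gave 4599 to 7242 calls, 2259 to 3583 lower and 2329 to 3659 higher, and the block 6833, and with the length trend removed 2105 were higher, where 14933 genes were tested.

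With the length trend removed, with or without the block, the sign turned for Eif4ebp2 (-0.044), Eif4ebp3 (0.22), Eif2ak4 (-0.16), Eif2ak3 (-0.17), Eif4g3 (-0.45), Eif4g2 (-0.39) and Eif1b (0.015). The other turns of sign were in genes not called in the main test. Leaving out 1 library at a time gave ranges of -0.019 to 0.13 for Eif2d, -0.099 to 0.032 for Eif4enif1, -0.053 to 0.058 for Eif4b, -0.099 to 0.012 for Eif3a, -0.16 to 0.0020 for Eif4h and -0.068 to 0.11 for Eif2ak3. Thinning gave 0.081 for Eif4enif1 and -0.0031 for Eif4g3. The cause of these turns was not tested. Thinning ended the calls of Eif2s3x, Eif2b3 and Eif2b4 and added Eif2ak4 (adjusted p 0.0479).

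Depth limits control replicate 3 most, where the fewest reads behind any Eif value were 26. The 14 Eif genes with exons of another gene on the opposite strand are uncertain to that extent.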
